A study of Mus musculus with 6 samples.

Results

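The dual-specificity phosphatases of the Dusp family that act on MAP kinases were followed in tumours of UV2237M, a mouse fibrosarcoma line (a cancer of connective tissue cells). The 10 genes *Dusp1*, *Dusp2*, *Dusp4*, *Dusp5*, *Dusp6*, *Dusp7*, *Dusp8*, *Dusp10*, *Dusp14* and *Dusp16* were found by symbol among the 23183 gene symbols of the count tables, and each passed the filter on low counts. They were chosen by family membership with their levels in both tumour groups already known, so differences between the groups are given as a description, without a p for any of them. All tumours carry the genotype label WT. The 3 untreated tumours had no treatment. The 3 treated tumours received gold nanoclusters (GNC), small clusters of gold atoms, on day 1 and again on day 7, with near-infrared (NIR) irradiation. No group had gold or light alone, so their effects cannot be told apart. The labels give no host strain, animal number or time from irradiation to harvest, so the spread between replicates is that of these samples and may be technical.

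MAP kinases are switched on by phosphorylation of a threonine and a tyrosine in their activation loop, and these enzymes remove both phosphates. ERK carries growth factor signals, and JNK and p38 also respond to stress, heat and cytokines. Many of the phosphatase genes are themselves switched on by the kinases they silence, which makes their products feedback inhibitors. *Dusp1*, *Dusp2*, *Dusp4* and *Dusp5* code for nuclear enzymes whose genes are induced quickly by stimuli. *Dusp6* and *Dusp7* code for cytoplasmic enzymes that prefer ERK. *Dusp8*, *Dusp10* and *Dusp16* code for enzymes that prefer JNK and p38, and *Dusp14* for a small atypical enzyme without the kinase-binding domain of the others.

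The promoters of the family differ in sites through which such induction is known to run, and 4 are shown here because their genes had unlike values. Each is a RefSeq window on GRCm38.p6 (mm10) from 250 bases before to 50 bases after the annotated start, 5′ to 3′ on the gene's strand. Capitals mark matches, on either strand, to the cAMP response element (CRE, TGACGTCA), to its shorter core TGACG, which the full element contains on both strands, to the AP-1 site TGANTCA, to the TATA box TATAAA and to the CArG box bound by serum response factor. The windows are chr17:26508423-26508722 on the minus strand for *Dusp1*, chr19:53528895-53529194 on the plus strand for *Dusp5*, chr10:99262981-99263280 on the plus strand for *Dusp6* and chr7:142095235-142095534 on the minus strand for *Dusp8*.
Dusp1: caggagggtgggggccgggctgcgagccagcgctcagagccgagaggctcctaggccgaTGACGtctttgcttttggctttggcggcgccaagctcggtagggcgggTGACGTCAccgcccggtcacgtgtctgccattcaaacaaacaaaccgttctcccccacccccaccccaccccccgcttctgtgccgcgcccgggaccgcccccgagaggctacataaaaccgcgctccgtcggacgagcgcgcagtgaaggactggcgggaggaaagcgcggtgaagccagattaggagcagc
Dusp5: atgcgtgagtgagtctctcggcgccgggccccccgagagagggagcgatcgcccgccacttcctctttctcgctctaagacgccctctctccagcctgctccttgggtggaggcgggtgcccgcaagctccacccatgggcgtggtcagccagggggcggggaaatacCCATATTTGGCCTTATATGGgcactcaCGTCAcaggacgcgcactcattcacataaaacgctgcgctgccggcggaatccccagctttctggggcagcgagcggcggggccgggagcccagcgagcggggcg
Dusp6: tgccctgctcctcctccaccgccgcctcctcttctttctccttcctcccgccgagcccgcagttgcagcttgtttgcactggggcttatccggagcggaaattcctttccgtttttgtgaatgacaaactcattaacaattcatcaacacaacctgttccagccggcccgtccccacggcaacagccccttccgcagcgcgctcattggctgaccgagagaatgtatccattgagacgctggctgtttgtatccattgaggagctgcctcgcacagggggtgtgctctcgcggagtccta
Dusp8: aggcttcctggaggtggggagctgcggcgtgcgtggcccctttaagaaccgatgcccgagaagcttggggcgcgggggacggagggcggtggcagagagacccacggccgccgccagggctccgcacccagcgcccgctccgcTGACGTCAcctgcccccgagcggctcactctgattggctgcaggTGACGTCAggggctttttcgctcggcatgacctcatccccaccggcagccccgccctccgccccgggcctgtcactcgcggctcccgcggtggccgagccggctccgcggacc
The *Dusp1* window held 1 full CRE, beginning 143 bases before the start, and a separate core 191 bases before it. The *Dusp5* window held 2 CArG boxes side by side, beginning 82 and 72 bases before the start, and a core at 55 bases. The *Dusp8* window held 2 full CREs, at 107 and 63 bases, and the *Dusp6* window had no capitals at all. Of the 10 genes 9 had a window in the table, all but *Dusp4*, and of those not printed *Dusp2* and *Dusp16* held 1 core each, while AP-1 sites and TATA boxes were found in 0 of the 9. The GC box GGGCGG, which is not marked, was found from 0 times in *Dusp6* to 5 times in *Dusp16*. Of all 32851 windows, 1.79% held a full CRE, 20.8% its core, 1.63% a CArG box, 7.81% an AP-1 site, 13.6% a TATA box and 35.7% a GC box. A match describes letters and not a site in use.

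The libraries held between 4680295 and 8019294 counts, of which 1902 to 3584 belonged to the 10 genes. Untreated 2 was the shallowest library and stood apart. Genes with GC-rich transcripts were low in it: with genes split by GC content into 5 bins of equal size, the median of the highest bin lay at -0.77 log2 against the average of the remaining libraries, and that of the lowest at 0.77. *Dusp2*, *Dusp4*, *Dusp5*, *Dusp7* and *Dusp8* fall in the highest bin. For the phosphatase and pathway genes named here, the log2 fold change without untreated 2 is given where leaving it out moved the value by over 1.5 times. Levels are in CPM, counts per 1000000 counts of the scaled library. All 12 fibroblast and fibrosarcoma markers passed the filter, with a summed level of 28240 to 39054 CPM without treatment and 27259 to 34966 CPM with it, of which *Col3a1* held 55.3%. In bulk tumour RNA fewer cells of a type and less RNA per cell cannot be told apart.

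Among the inducible nuclear genes, *Dusp1*, *Dusp4* and *Dusp5* were higher in every treated tumour than in any untreated one, and *Dusp2* was not. *Dusp1* codes for the prototype of the family, a stress-induced enzyme that acts on p38, JNK and ERK. It lies on chromosome 17, 26505590 to 26562128 (gene positions are those of GENCODE M21 on mm10). On the minus strand this span reaches well upstream of the RefSeq start used for the promoter window, which lies inside it. *Dusp1* stood at 16.4, 14.5 and 20.2 CPM in the untreated tumours 1, 2 and 3, and 36.4, 57.4 and 82.0 CPM in the treated ones. The highest treated tumour exceeded the lowest by 2.25-fold, and the highest untreated one the lowest by 1.40-fold. The means were 58.6 ± 22.8 against 17.0 ± 2.91 CPM (SD, n = 3 each), with a log2 fold change of 1.78 ± 0.33 (SE of edgeR's fit).

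*Dusp4* (chromosome 8, 34807297 to 34819894) codes for a close relative of the *Dusp1* product. *Dusp4* stood at 1.66, 1.56 and 2.69 CPM in the untreated tumours 1, 2 and 3, and 10.5, 10.6 and 16.6 CPM in the treated ones. The highest untreated value rests on 22 counts, with an exact 95% Poisson interval of 1.69 to 4.08 CPM, and the lowest treated value on 59 counts, with an interval of 8.01 to 13.6 CPM. These intervals cover counting error only, and they do not overlap. The means of *Dusp4* were 12.6 ± 3.50 and 1.97 ± 0.628 CPM, and its log2 fold change of 2.64 ± 0.37 was the highest of the 10. Among untreated tumours its coefficient of variation was 31.8%, near the 27.4% that counting alone gives at this depth.

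*Dusp5* (chromosome 19, 53529109 to 53542431) codes for a nuclear enzyme specific for ERK. *Dusp5* stood at 4.68, 5.57 and 7.71 CPM in the untreated tumours 1, 2 and 3, and 13.2, 12.4 and 13.1 CPM in the treated ones. Among the treated tumours its coefficient of variation was 3.70%, below the 10.5% that counting alone gives, so a difference among them was not detectable at this depth. For *Dusp1* it was 39.0%, against 4.83% from counting. The log2 fold change of *Dusp5* was 1.098 ± 0.27, from treated and untreated means of 12.9 ± 0.477 and 5.99 ± 1.56 CPM. *Dusp2* (chromosome 2, 127336159 to 127338376), known mainly from blood cells, gave a different picture. *Dusp2* was at 6.49, 12.7 and 11.02 CPM in the untreated tumours 1, 2 and 3, and 8.21, 13.4 and 8.81 CPM in the treated ones. Its groups overlapped, and its log2 fold change was 0.02 ± 0.35, or 0.20 ± 0.33 without untreated 2.

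**Figure D1:**
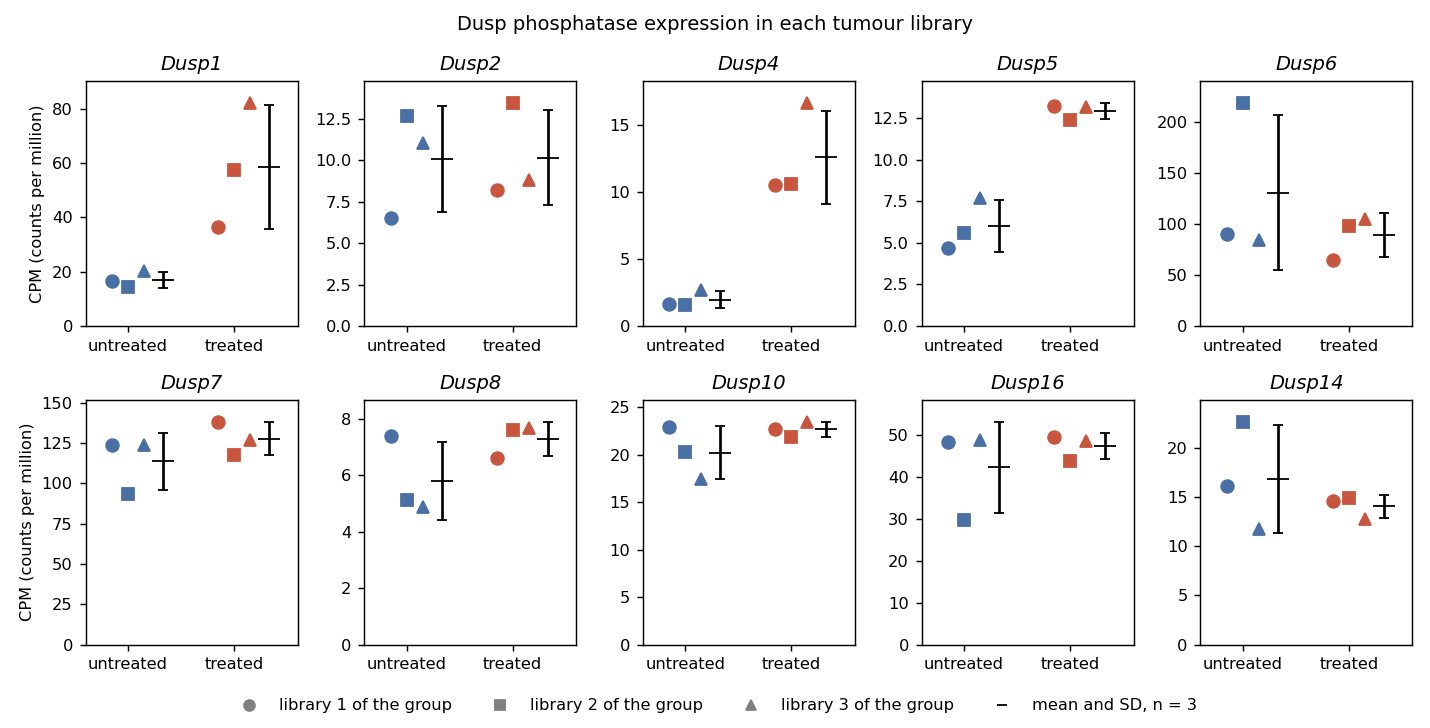
CPM of each phosphatase gene (y axis from 0) in the 3 untreated (blue) and 3 treated (red) libraries, with marker shapes for library number and black bars for the mean and SD. *Dusp1*, *Dusp4* and *Dusp5* have no overlap between the groups, and *Dusp6* has a single high point, untreated 2 at 218.0 CPM.

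All treated values lay above all untreated ones for 3 of the 10 genes, where 10.6% of all 12517 tested genes showed the same, and below them for 0 of 10, against 10.2% of all genes. In either direction the background was 20.8%. Without untreated 2 the same 3 genes were separated, against backgrounds of 19.7% above and 19.9% below. A log2 fold change above 0 was found for 8 of the 10 and for 49.9% of all genes. With edgeR's quasi-likelihood test and Benjamini-Hochberg adjustment, 0 of the 10 and 0% of all genes passed at 0.05 in either direction. At an unadjusted p under 0.05, 3 of the 10 were higher, against 3.32% of all genes, and 0 were lower, against 4.85%. DESeq2 called *Dusp1* and *Dusp4* higher, 2 of the 10, where it called 0.156% of all genes higher and 0.338% lower, and limma-voom called 0 of the 10 and 0% of all genes. Since the genes were proposed with this comparison known, nothing is read from these counts.

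*Dusp6* and *Dusp7*, the ERK-selective cytoplasmic class, had the highest mean CPM of the 10 and did not separate the groups. Of the 10, they alone are called ERK-selective below, although the nuclear *Dusp5* product is also specific for ERK. *Dusp6* (chromosome 10, 99263231 to 99267489) codes for the main cytoplasmic brake on ERK and is a widely used readout of ERK activity. *Dusp6* stood at 90.1, 218.0 and 83.8 CPM in the untreated tumours 1, 2 and 3, and 64.4, 97.7 and 104.3 CPM in the treated ones. Untreated 2 held 2.51 times the mean of the other untreated tumours, which lay within the treated range. The log2 fold change of *Dusp6* was -0.55 ± 0.42, and 0.03 ± 0.20 once untreated 2 was left out, so the lower treated mean (88.8 ± 21.4 against 130.6 ± 75.7 CPM) rests on that library.

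*Dusp7* (chromosome 9, 106368632 to 106375724), the nearest relative of *Dusp6* among the 10, was low where *Dusp6* was high. *Dusp7* stood at 123.9, 93.3 and 123.7 CPM in the untreated tumours 1, 2 and 3, and 138.3, 117.7 and 127.2 CPM in the treated ones. Its log2 fold change was 0.17 ± 0.20, or 0.04 ± 0.11 without untreated 2, and -0.14 when the trend with GC content and transcript length was removed. The ratio of *Dusp6* to *Dusp7* counts within a library, which needs no scaling, was 0.727, 2.34 and 0.678 in the untreated tumours 1, 2 and 3, and 0.466, 0.830 and 0.820 in the treated ones. Untreated 2 was again the single library apart.

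The genes for the JNK- and p38-selective enzymes were close to level across the tumours. *Dusp10* (chromosome 1, 184013302 to 184075636) codes for an enzyme that restrains p38 and JNK in inflammation. *Dusp10* stood at 22.9, 20.3 and 17.4 CPM in the untreated tumours 1, 2 and 3, and 22.7, 21.9 and 23.4 CPM in the treated ones. Its log2 fold change was 0.17 ± 0.20. *Dusp16* (chromosome 6, 134715468 to 134792625) codes for an enzyme that shuttles between nucleus and cytoplasm and acts on JNK. *Dusp16* stood at 48.3, 29.8 and 49.0 CPM in the untreated tumours 1, 2 and 3, and 49.6, 43.8 and 48.6 CPM in the treated ones. The single library apart was untreated 2, and the log2 fold change was 0.16 ± 0.24, or -0.05 ± 0.12 without it.

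*Dusp8* (chromosome 7, 142079490 to 142095843) is known from brain and heart. *Dusp8* stood at 7.39, 5.12 and 4.90 CPM in the untreated tumours 1, 2 and 3, and 6.60, 7.60 and 7.69 CPM in the treated ones. Untreated 1 lay inside the treated range. The log2 fold change of *Dusp8* was 0.33 ± 0.29, and it was -0.23 with the trend for GC content and length removed. *Dusp8* had 2 full CREs in its promoter window and overlapping groups, while *Dusp1* had 1 and no overlap. Whether these sites bear on the values was not tested. The small enzyme's gene, *Dusp14* (chromosome 11, 84048041 to 84069261), had its highest value in untreated 2. *Dusp14* stood at 16.1, 22.7 and 11.8 CPM in the untreated tumours 1, 2 and 3, and 14.6, 14.9 and 12.8 CPM in the treated ones. Its log2 fold change was -0.25 ± 0.29, and 0.01 ± 0.22 without untreated 2.

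**Figure D2:**
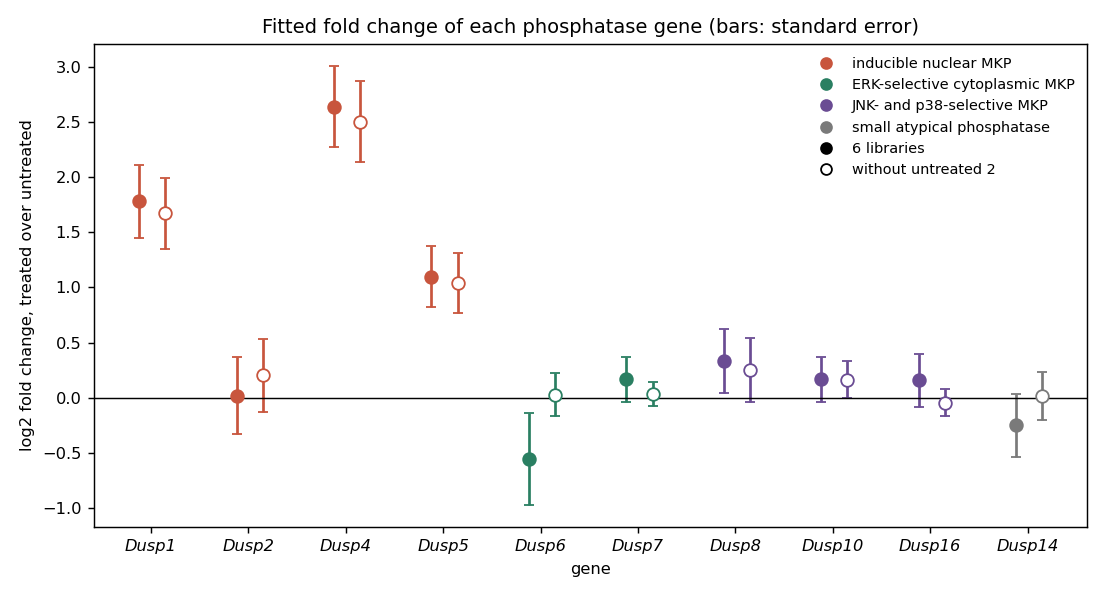
Log2 fold change, treated over untreated, of each gene (x axis) from edgeR's fit, coloured by class, with the standard error as bars, for all 6 libraries (filled) and without untreated 2 (open). *Dusp1*, *Dusp4* and *Dusp5* lie between 1.098 and 2.64 with all libraries, and *Dusp6* moves from -0.55 to 0.03.

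Set side by side, the classes differed in their medians. The median log2 fold change was 1.44 over the 4 inducible nuclear genes, from 0.02 for *Dusp2* to 2.64 for *Dusp4*. It was -0.19 over the 2 ERK-selective genes (0.032 without untreated 2) and 0.17 over the 3 JNK- and p38-selective genes. Over the 10 it was 0.17, and over all 12517 tested genes -0.00098. *Dusp9*, outside the 10 but also coding for an ERK-selective cytoplasmic enzyme, had 0.97 ± 0.35 with overlapping groups. By summed CPM, the inducible nuclear genes held 29.3, 34.3 and 41.6 in untreated tumours 1, 2 and 3, and 68.3, 93.8 and 120.6 in the treated ones. The ERK-selective genes held 214.0, 311.3 and 207.6, and 202.7, 215.4 and 231.5 with treatment. The JNK- and p38-selective genes held 78.6, 55.2 and 71.2, and 78.9, 73.3 and 79.8 with treatment. The nuclear class had the lowest sum of these 3 in every untreated tumour and in treated 1, and exceeded the JNK- and p38-selective class in treated 2 and 3.

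Ratios of counts within a library gave this balance without any scaling between libraries. Inducible nuclear counts over ERK-selective counts were 0.137, 0.110 and 0.2005 in untreated tumours 1, 2 and 3, and 0.337, 0.435 and 0.521 in the treated ones. Inducible nuclear counts over JNK- and p38-selective counts were 0.372, 0.621 and 0.584 without treatment and 0.867, 1.28 and 1.51 with it. Neither ratio overlapped between the groups. Both lean on *Dusp1*, the largest part of the nuclear sum in every library, from 14.5 of 34.3 CPM in untreated 2 to 82.0 of 120.6 CPM in treated 3. The ratio of ERK-selective to JNK- and p38-selective counts did overlap, at 2.72, 5.64 and 2.91 without treatment and 2.57, 2.94 and 2.90 with it. Within the nuclear class *Dusp4* over *Dusp1* was 0.101, 0.108 and 0.133 without treatment and 0.289, 0.184 and 0.203 with it. The untreated ratios rest on only 11, 7 and 22 *Dusp4* counts. The fitted log2 fold changes were 2.64 ± 0.37 for *Dusp4* and 1.78 ± 0.33 for *Dusp1*, and whether they are unequal was not tested.

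**Figure D3:**
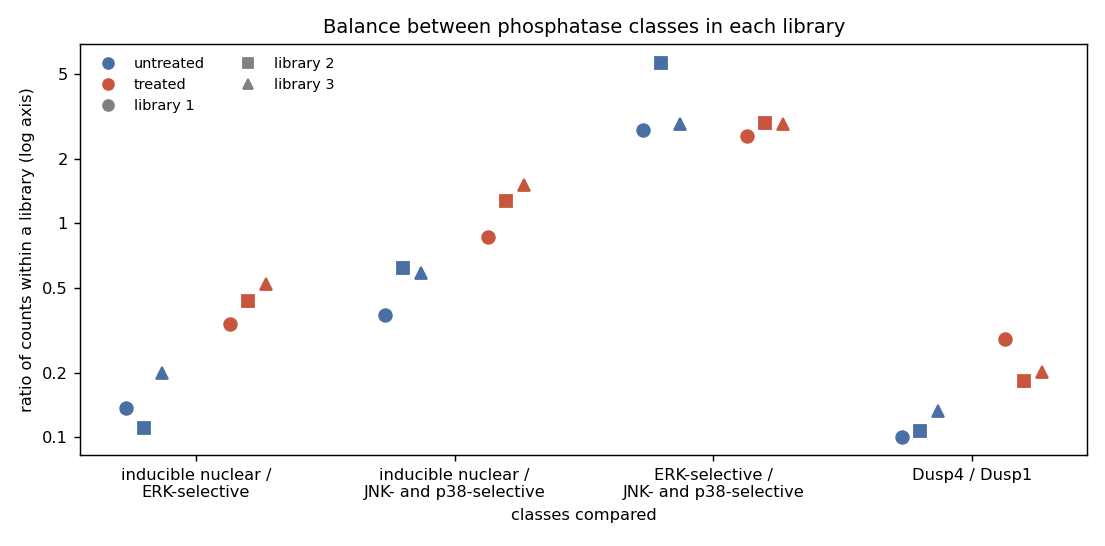
Ratio of summed counts of phosphatase classes within each library (log y axis) for untreated (blue) and treated (red) libraries, marker shapes giving library number. Both ratios with the inducible nuclear class on top are higher in all 3 treated libraries, and the ratio of the other classes overlaps, with untreated 2 alone at 5.64.

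Levels were compared between genes per kilobase of the longest annotated transcript, since longer transcripts give more counts. Without treatment *Dusp6* came first with 46.7 ± 27.1 CPM per kb, followed by *Dusp7* with 35.4 ± 5.49, and their ranges over libraries overlapped. Next, each overlapping its neighbour, came *Dusp14* (10.7 ± 3.51), *Dusp16* (8.30 ± 2.13), *Dusp1* (7.37 ± 1.26), *Dusp10* (7.23 ± 0.996) and *Dusp2* (6.22 ± 1.98 CPM per kb). *Dusp5* (2.42 ± 0.630), *Dusp8* (1.21 ± 0.288) and *Dusp4* (0.719 ± 0.229 CPM per kb) came last, without overlap between neighbours. With treatment the order began with *Dusp7* (39.7 ± 3.21), *Dusp6* (31.8 ± 7.65) and *Dusp1* (25.3 ± 9.87 CPM per kb), each overlapping the next. *Dusp1* was then above *Dusp16* (9.28 ± 0.604 CPM per kb) without overlap. From there *Dusp14* (8.98 ± 0.742), *Dusp10* (8.11 ± 0.286), *Dusp2* (6.28 ± 1.77), *Dusp5* (5.22 ± 0.193) and *Dusp4* (4.59 ± 1.28 CPM per kb) followed with overlapping neighbours, and *Dusp8* (1.52 ± 0.126 CPM per kb) came last without overlap. The transcripts in use were not measured, so an order between near neighbours can depend on the length taken.

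**Figure D4:**
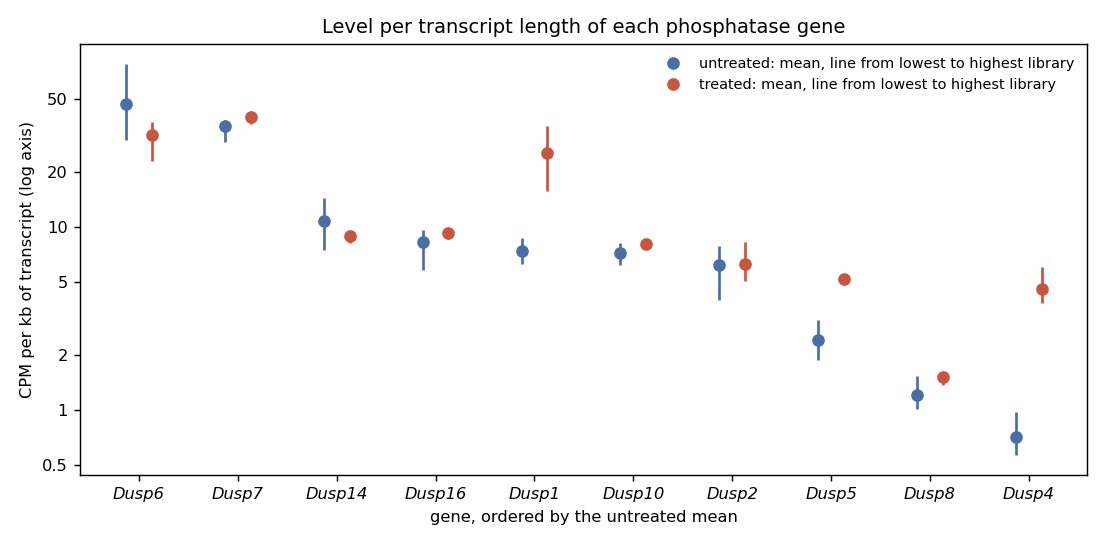
Mean level of each gene in CPM per kb of its longest transcript (log y axis), untreated (blue) and treated (red), with lines from the lowest to the highest of 3 libraries. *Dusp1* moves from 7.37 to 25.3, and *Dusp4* from the last place at 0.719 to 4.59.

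Over the 6 libraries, which share their group, depth and scaling, Pearson's r of log2 CPM was 0.97 for *Dusp1* and *Dusp4*, 0.97 for *Dusp4* and *Dusp5*, and 0.90 for *Dusp1* and *Dusp5*. *Dusp1* and *Dusp4* were both highest in treated 3. The order of the other libraries within a group was not resolved for *Dusp4*, whose values of 10.5 and 10.6 CPM in treated 1 and 2 lie within counting error, nor for *Dusp5* among the treated tumours. Over all 45 pairs of the 10 genes the median r was 0.22, and 13 pairs changed sign without untreated 2.

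The genes most like 3 of the phosphatases in pattern were found by the root mean square difference of log2 CPM over the 6 libraries, after removal of each gene's mean, among 10355 candidates. Nearest to *Dusp4* was *Rgs16*, a regulator of G protein signalling, at 0.211, where *Dusp4* itself varied by 1.29. *Rgs16* stood at 9.81, 7.57 and 20.3 CPM in the untreated tumours 1, 2 and 3, and 58.9, 52.5 and 87.2 CPM in the treated ones. *Gprc5a*, an orphan receptor (0.432), and *Syt7*, a synaptotagmin (0.468), came next. Among the nearest to *Dusp1*, which varied by 0.925, were *Cdh11*, a cadherin (0.252), and *Serpine2*, a protease inhibitor (0.286). Nearest to *Dusp6*, which varied by 0.540, were *Mtg2*, a mitochondrial GTPase (0.0960), *Igtp*, an interferon-inducible GTPase (0.1003), and *Cxcl10*, a chemokine (0.110). Each of these last 3 was highest in untreated 2, as *Dusp6* was.

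In the kinase cascades that these enzymes act on, single genes lay on both sides. Of 21 tested genes of the ERK cascade 0 passed edgeR's test in either direction and 0 had an unadjusted p under 0.05, where 3.32% of all genes were higher and 4.85% lower. The treated values lay above all untreated ones for 4 of the 21 and below for 1, against 10.6% and 10.2% of all genes, and the median log2 fold change was 0.06. *Hras*, a Ras GTPase, averaged 40.9 ± 2.90 CPM with treatment and 31.5 ± 1.78 without, and *Sos1*, which loads Ras with GTP, 95.9 ± 7.21 CPM with treatment and 76.9 ± 12.6 without (0.32 on the log2 scale, 0.18 without untreated 2). *Lamtor3*, a scaffold, lay the other way with 45.9 ± 2.76 CPM with treatment and 61.6 ± 12.96 without (-0.42 on the log2 scale, -0.25 without untreated 2). *Map2k1*, the kinase above ERK, averaged 104.3 ± 4.95 CPM with treatment and 131.9 ± 65.5 without, with 207.5 CPM in untreated 2, and its log2 fold change was 0.14 once that library was left out.

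Of 24 tested genes of the JNK and p38 cascades 0 passed, and the median was 0.12. The treated values lay above all untreated ones for 3 of the 24 and below for 2, against 10.6% and 10.2% of all genes. At an unadjusted p under 0.05, 0 were higher and 1 was lower, against 3.32% and 4.85% of all genes. That gene was *Mapk8ip1*, a JNK scaffold, with 21.7 ± 3.43 CPM with treatment and 36.1 ± 6.09 without. *Mapk8*, which codes for a JNK kinase, averaged 51.4 ± 5.50 CPM with treatment and 85.7 ± 40.0 without, with 131.8 CPM in untreated 2 (-0.74 on the log2 scale, -0.29 without untreated 2). *Map2k3*, a kinase above p38, averaged 75.6 ± 10.1 CPM with treatment and 56.9 ± 8.16 without, and *Gadd45g*, an activator of the stress kinase cascades, 13.1 ± 6.24 CPM with treatment and 6.54 ± 3.75 without (0.97 on the log2 scale, 0.60 without untreated 2).

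Among targets of the kinases 0 passed edgeR's test. Of 18 genes of ERK feedback and output, 14 had a log2 fold change above 0, against 49.9% of all genes. Of these 18, 5 were higher and 1 lower at an unadjusted p under 0.05, against 3.32% and 4.85% of all genes. The median was 0.49. *Phlda1*, an early ERK target that DESeq2 called, averaged 46.3 ± 16.5 CPM with treatment and 11.9 ± 6.44 without, and *Ier3*, an early response gene, 47.3 ± 15.4 CPM with treatment and 16.6 ± 7.53 without. *Spry1*, a feedback inhibitor of receptor signalling, averaged 5.32 ± 1.70 CPM with treatment and 13.4 ± 6.28 without, and *Etv5*, an Ets factor of the ERK response, 19.7 ± 1.93 CPM with treatment and 26.6 ± 1.46 without. Both of these lay lower in every treated tumour than in any untreated one. The treated values lay above all untreated ones for 5 of the 18 and below for these 2, against 10.6% and 10.2% of all genes.

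Of 18 AP-1 and early response genes, 16 lay above 0, against 49.9% of all genes. At an unadjusted p under 0.05, 8 of the 18 were higher and 0 lower, against 3.32% and 4.85% of all genes. The treated values lay above all untreated ones for 10 of the 18 and below for 0, against 10.6% and 10.2% of all genes. The median was 0.82. DESeq2 called 3 of them higher, *Fos*, *Fosb* and *Atf3*, where it called 0.156% of all genes higher. The list was chosen with earlier results known, so nothing is read from these counts. *Fos* stood at 8.45, 9.35 and 10.6 CPM in the untreated tumours 1, 2 and 3, and 19.8, 79.3 and 86.3 CPM in the treated ones. Of the treated tumours *Fos*, an AP-1 subunit, was lowest in treated 1, as *Dusp1* was. *Atf3*, a stress-induced factor, averaged 21.2 ± 8.99 CPM with treatment and 4.45 ± 2.45 without and was instead highest in treated 1, at 28.4 CPM. The remaining 2 genes, below 0, were *Egr3*, a zinc finger factor (5.83 ± 3.52 CPM with treatment and 9.15 ± 3.98 without), and the AP-1 subunit *Jund* (209.2 ± 14.0 CPM with treatment and 222.8 ± 65.8 without), which lay at 0.17 without untreated 2.

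Among 13 tested regulators of such transcription 0 passed, with a median of 0.09. At an unadjusted p under 0.05, 1 was higher and 0 were lower, against 3.32% and 4.85% of all genes. That gene was *Srf*, which codes for the factor that binds CArG boxes. *Srf* stood at 65.2, 44.8 and 69.3 CPM in the untreated tumours 1, 2 and 3, and 95.3, 84.0 and 103.5 CPM in the treated ones. Its groups did not overlap, and its log2 fold change was 0.66 ± 0.23, or 0.32 with the trend for GC content and length removed. Of the 13 regulators, 2 had all treated values above all untreated ones and 1 had them below, against 10.6% and 10.2% of all genes. *Ets1*, a factor downstream of ERK, averaged 197.8 ± 17.7 CPM with treatment and 116.5 ± 62.8 without, with 47.2 CPM in untreated 2 (0.76 on the log2 scale, 0.38 without untreated 2). *Creb1*, whose product binds CREs, averaged 114.3 ± 7.56 CPM with treatment and 145.3 ± 48.7 without and lay at -0.04 on the log2 scale when untreated 2 was left out. *Elk1*, a partner of serum response factor, averaged 34.6 ± 2.56 CPM with treatment and 37.6 ± 1.21 without.

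Markers of other cells in the tumours differed between libraries, and their part in the phosphatase values was not tested. The 10 macrophage markers summed to 1237 to 2665 CPM without treatment and 705.2 to 1364 CPM with it, with *Lyz2* the largest share at 38.8%. The 9 neutrophil markers found, of 10 listed, summed to 37.3 to 129.5 CPM without treatment and 114.4 to 165.6 CPM with it. The 9 endothelial markers summed to 114.0 to 241.9 CPM without treatment and 195.9 to 285.8 CPM with it. The 7 mast cell markers summed to 27.9 to 67.2 CPM without treatment and 13.03 to 19.4 CPM with it, without overlap. Markers of the lymphocytes in which *Dusp2* is best known were low. Of 12 listed T and NK cell markers, 10 were in the count tables and 1 passed the filter. Those 10 summed to 4.23 to 7.70 CPM without treatment and 0.892 to 4.34 CPM with it. *Cd3e* had 0 counts in each library, and *Cd4* held 59.8% of the sum. The 7 B and plasma cell markers summed to 0.905 to 1.11 CPM without treatment and 1.25 to 1.63 CPM with it, with *Ms4a1* and *Pax5* at 0. The 9 keratinocyte markers summed to 5.39 to 1269 CPM without treatment and 4.34 to 67.5 CPM with it, and the 8 skeletal muscle markers to 19.7 to 94.0 CPM without treatment and 3.66 to 435.0 CPM with it. Treated 3, the highest in *Dusp1* and *Dusp4*, was also the highest in muscle, neutrophil and endothelial markers, and without it *Dusp1* and *Dusp4* had log2 fold changes of 1.46 and 2.39.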

How the data were processed

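The data are RNA-seq libraries of 6 tumours, 3 untreated and 3 treated, grouped by their titles. Per the labels' protocols, Trizol was used for RNA and the library kit keeps strand. Per the submitters' processing notes, TopHat (version not given) and mm10 were used. No counting program, strand setting or annotation is given in the sources used here. The authors deposited whole-number counts per gene symbol, used here as they are.

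With edgeR 4.0.16 (R 4.3.3), filterByExpr (smallest count 10) kept 12517 genes. After TMM scaling, a 2-sided quasi-likelihood test compared treated with untreated libraries, with Benjamini-Hochberg adjustment over all tested genes at 0.05. An SE is the log2 fold change divided by the root of F. CPM use TMM library sizes. The fit was tested on simulated counts with known changes. The recovery it had to reach was set only for a spread below the one observed here, so its power at the observed spread is not shown. Between any 2 libraries the chi-square statistic per gene was 5.64 or more, the closest pair being untreated 3 and treated 2, so none repeated another.

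Without a known strand setting, overlapping genes can share counts. Overlaps given here are of whole gene spans, introns included, and whether they hold bases that are counted was not tested. The GENCODE span of *Dusp1*, which reaches well upstream of its RefSeq start, overlaps *Ergic1* by 640 bases on the other strand. *Ergic1* averaged 180.2 ± 19.7 CPM with treatment and 138.5 ± 21.6 without. *Dusp10* overlaps *1700056E22Rik* by 1272 bases, which averaged 0.616 ± 0.411 CPM with treatment and 1.34 ± 0.863 without.

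Members and lists were chosen with earlier results of these data known. Named are all 10 members, up to 2 tested genes per direction with the smallest unadjusted p in each of 7 lists of related genes, other Dusp genes above 5 CPM, and the 3 genes most like *Dusp1*, *Dusp4* and *Dusp6* (prior count 2 for log2 CPM, mean of at least 5 CPM), of which 1 is not reported here. *Fosb* is named because DESeq2 called it, after its values were seen. Lengths, GC content and positions are those of GENCODE M21, which matched 22148 symbols by name and 666 by synonym, leaving 369. Alternatives were other scalings, DESeq2 1.42.0, limma-voom (limma 3.58.1), other filters, leaving out each library, a replicate block, and removal of a loess trend (span 0.3) with GC content and length. DESeq2 without untreated 2, and the overlap of the groups without it, were added after seeing the data.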

Additional observations from a re-analysis of the deposited data

How the results depend on the processing

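*Dusp4*, with 7 to 22 counts in untreated libraries, is the member most limited by depth. Over 16 alternatives *Dusp1* ranged from 1.46 to 2.02, *Dusp4* from 2.39 to 2.95, *Dusp5* from 0.93 to 1.33 and *Dusp10* from 0.07 to 0.26 in log2 fold change. The other 6 members changed sign in at least 1 alternative. edgeR called 0 genes in each fit of all 6 libraries, and 0 to 4 without 1 library, the 4 without untreated 3. DESeq2 called 57 genes, 0.494% of those with an adjusted p, 2 of them members and 4 in the lists of related genes. Without untreated 2 DESeq2 called 273 genes, or 2.41%, with 2 members and 10 list genes among them. Without 1 library the class median ranged from -0.28 to 0.032 for the ERK-selective genes, the upper value without untreated 2 (0.032 with DESeq2 too), from 1.27 to 1.63 for the inducible nuclear genes and from 0.14 to 0.26 for the JNK- and p38-selective genes. With GC and length trends removed these medians were -0.35, 1.30 and 0.09. Genes at an unadjusted p under 0.05 in edgeR numbered 1023, and 2362 without untreated 2, 1687 without untreated 3, 574 without treated 1, 313 without treated 3 and 1577 with the trends removed. The cause of these moves was not tested.

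The titles number the libraries 1 to 3 in both groups. Same-numbered libraries did not deviate together from their group means (correlations of -0.18, -0.11 and 0.09). With 3 libraries per group the deviations are tied to each other, so these values cannot decide whether the numbers mark pairs. With the number as a replicate block, edgeR called 0 genes and 988 had an unadjusted p under 0.05, and the class medians were 1.42, -0.13 and 0.19 for the inducible nuclear, ERK-selective and JNK- and p38-selective genes.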

Other observations

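Phosphatases outside the 10 genes gave a mixed picture. Of 20 other dual-specificity phosphatases 12 were tested, 0 passed edgeR's test, and the median log2 fold change was -0.35. The treated values lay above all untreated ones for 1 of the 12, *Dusp18*, and below for 0, against 10.6% and 10.2% of all genes. At an unadjusted p under 0.05, 1 was higher and 0 were lower, against 3.32% and 4.85% of all genes. That gene was *Dusp9*, which codes for another ERK-selective cytoplasmic enzyme. *Dusp9* stood at 20.5, 41.6 and 31.5 CPM in the untreated tumours 1, 2 and 3, and 74.0, 39.6 and 69.3 CPM in the treated ones. Treated 2 lay within the untreated range, and the log2 fold change was 0.97 ± 0.35, or 0.58 with the trend for GC content and length removed. *Dusp6* and *Dusp7*, of the same class, had -0.55 and 0.17. *Dusp18*, an atypical enzyme, averaged 86.1 ± 11.05 CPM with treatment and 61.8 ± 14.5 without, without overlap (0.48 on the log2 scale, 0.30 without untreated 2). *Dusp28* lay the other way with 3.02 ± 1.11 CPM with treatment and 7.60 ± 4.81 without (-1.29 on the log2 scale, -0.69 without untreated 2), as did the cofilin phosphatase gene *Ssh3* with 4.96 ± 0.760 CPM with treatment and 7.58 ± 2.93 without. *Dusp3* averaged 56.9 ± 4.36 CPM with treatment and 54.2 ± 3.41 without, and *Dusp19* 5.90 ± 0.460 CPM with treatment and 7.87 ± 1.42 without. The lower treated means of *Dusp11* (176.2 ± 14.4 CPM with treatment and 215.5 ± 60.0 without) and *Dusp12* (26.7 ± 4.34 CPM with treatment and 35.5 ± 15.03 without) rest on untreated 2, as their log2 fold changes went from -0.29 to -0.05 and from -0.41 to -0.02 when it was left out. The groups of these 4 genes overlapped, as did those of *Dusp28* and *Ssh3*.

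Of 8 tested phosphatases of other families that act on MAP kinases 0 passed, with a median of -0.08. An unadjusted p under 0.05 was found for 0 of the 8, where 3.32% of all genes were higher and 4.85% lower. *Ppm1d* stood at 25.96, 25.8 and 26.2 CPM in the untreated tumours 1, 2 and 3, and 22.5, 21.2 and 21.5 CPM in the treated ones. This phosphatase gene, whose product acts on p38 and p53, had no overlap and a log2 fold change of -0.26 ± 0.18. All treated values lay below all untreated ones for 1 of the 8 and above for 0, against 10.2% and 10.6% of all genes. *Ptpn2* averaged 50.2 ± 3.90 CPM with treatment and 56.7 ± 12.6 without, *Ppm1b* 88.8 ± 3.92 CPM with treatment and 72.2 ± 21.6 without and *Ptprj* 66.1 ± 8.82 CPM with treatment and 55.8 ± 19.3 without, all with overlap. When untreated 2 was left out, their log2 fold changes went from -0.17 to 0.00747, from 0.30 to 0.07 and from 0.24 to -0.00664.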
